A study of Mus musculus with 4 samples.

Results

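Chromosome 14 of the mouse melanoma line B16-F10 held 2095 of the 71187 accessible regions found on the 19 autosomes, and these 2095 regions are described here. They were chosen by position: the peak calls of 4 libraries were merged wherever they overlapped by 1 bp or more, and every merged region of chromosome 14 was taken except the 24 with a midpoint between 41 and 45 Mb. The 69068 merged regions of the other 18 autosomes served as the reference. The assay was ATAC-seq: the Tn5 transposase cuts and tags DNA that is not wrapped tightly in chromatin. Of the 4 libraries, 2 came from wild-type B16-F10 cells and 2 from B16-F10 cells in which Ssbp4 had been knocked out with CRISPR-Cas9. The labels describe electroporation of Cas9 with a mixture of guides against Ssbp4 or with a control guide to an intergenic site of chromosome 2. They do not say whether the knockout cells were 1 clone or a mixed population, whether the wild-type libraries received the control guide, or whether replicates came from separate cultures, so the spread between replicates may be technical.

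The chromosome was proposed for study because the calls at its shared regions ranked higher in the knockout lists than in the wild-type lists. Every comparison of the genotypes on this chromosome is therefore a description, with no test, and 2 libraries against 2 cannot give a permutation p below 0.33. All libraries share the cell line and, per the labels, the culture conditions and the assay kit.

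Open chromatin in a mammalian cell is found mainly at promoters, at enhancers and at sites bound by the insulator protein CTCF, and it is typically dense where genes are dense and sparse in gene deserts. SSBP4 belongs to a family of single-stranded DNA-binding proteins that bind the LIM-domain-binding cofactor LDB1, which brings distant enhancers and promoters together. The RefSeq gene table at hand assigns 851 protein-coding genes to chromosome 14. Among them are Dct, which encodes the melanin enzyme dopachrome tautomerase, Ednrb, the endothelin receptor that melanocyte precursors need, Fdft1, which encodes squalene synthase of the cholesterol pathway, and the tumour suppressor Rb1. That table belongs to an older build of the genome than the peak lists, so the regions below are named by position in GRCm39 and no region is assigned to a gene. No sequence of the regions was used here.

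Chromosome 14 was the sparsest autosome. Its regions ran from chr14:3050784 to 125039649 and numbered 17.8 per Mb, against 30.3 per Mb on the other autosomes, and all 18 others were denser. The median gap between neighbouring regions was 15.6 kb, against 10.0 kb elsewhere. Per protein-coding gene there were 2.46 regions on chromosome 14 and 3.49 on the other autosomes, and only chromosome 7, at 2.20, had fewer. The gene count takes in the left-out segment, and 16.8% of the genes of chromosome 14 carry a Gm symbol, given to predicted genes, against 4.16% elsewhere. The regions themselves had the usual length, with a median of 915 bp against 913 bp and a range from 307 to 4902 bp. In 40 regions (1.91%, against 1.87% elsewhere) at least 1 library had more than 1 separate call.

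The regions were unevenly spread along the chromosome. The fullest 10-Mb bin was the seventh, from 60 to 70 Mb, with 308 regions, of which 185 were called in all 4 libraries. The bins from 50 to 60 Mb and from 70 to 80 Mb followed with 296 and 276. From 80 to 100 Mb there was a sparse stretch: the bin from 80 to 90 Mb held 39 regions and the emptiest, from 90 to 100 Mb, held 28, with 14 shared regions in each. The longest intervals without any call ran over 2.34 Mb at chr14:27318543-29662779 and over 2.12 Mb at chr14:91127384-93246654. At the other extreme, the single megabase from 25 to 26 Mb held 77 regions.

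**Figure D1:**
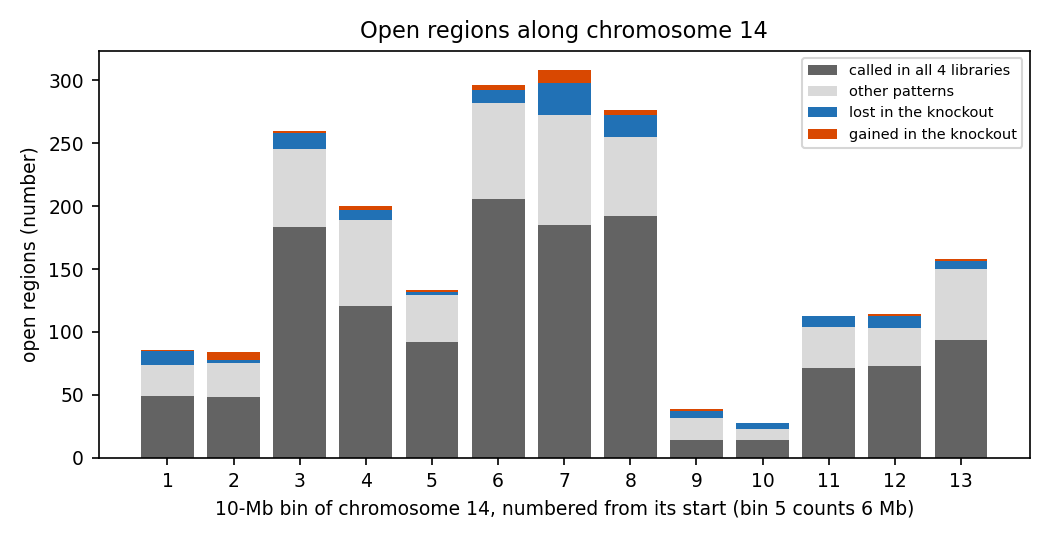
Number of open regions (vertical axis) in each 10-Mb bin of chromosome 14 (horizontal axis, numbered from the start of the chromosome), stacked by call pattern; bin 5 leaves out the segment from 41 to 45 Mb. Bins 6, 7 and 8 hold 296, 308 and 276 regions, and bins 9 and 10 hold 39 and 28.

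The strength of a region is given below by its summit pileup, the whole number of fragments that cover the highest point of its strongest call, recovered from the deposited fold and p-value. The sources used here do not say whether the caller counted fragments or single reads, and the word fragments stands below for either. Its percentile is the place of that call in the library's autosomal list by the p-value. The strongest region called in all 4 libraries, chr14:67952642-67954000, had summit pileups of 3926 and 4351 in replicates 1 and 2 of the wild type and of 2918 and 3966 in those of the knockout. Its genotypes overlapped, and it stood above the 99.8th percentile of every list. The region chr14:4230037-4231532 followed with 3608 and 4360 in wild type against 3111 and 3355 in the knockout. Here both knockout libraries lay below both wild-type libraries before any allowance for the lower enrichment of the knockout lists.

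A pair of strong regions lay close together, chr14:55797274-55798573 and chr14:55828229-55829647. The first had pileups of 2789 and 3119 in wild type against 2414 and 2743 in the knockout, and the second had 2752 and 3010 against 2289 and 2797. The other 4 of the 8 strongest were chr14:120714636-120715835, chr14:21549923-21551356, chr14:52340913-52342527 and chr14:61409672-61411029, with pileups between 1913 and 3252 over the 4 libraries. All 8 held a single call in each library, and the merged regions were 1200 to 1615 bp long. Relative to the other autosomes, the log2 ratio of knockout to wild-type pileup at these 8 regions ranged from 0.05 to 0.25. Each of the 8 thus lay on the higher side in the knockout in this mean ratio. After centring on the other autosomes, the genotypes overlapped at chr14:67952642-67954000 and chr14:4230037-4231532. By rank the 8 ranged from -0.35 to 0.14 percentile points relative to the other autosomes. The median region of the other autosomes rose by 0.35 points, so -0.35 is no change and none of the 8 fell in rank. Regions this near the top of every list have little room to rise.

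The longest regions were of intermediate strength and differed in direction relative to the other autosomes. The longest, chr14:25457854-25462755 (4902 bp), lies in the fullest megabase and had pileups of 719 and 759 in wild type against 549 and 561 in the knockout, a relative log2 ratio of -0.04. Next came a neighbouring pair. The region chr14:118248515-118252560 (4046 bp) had 667 and 711 in wild type against 340 and 367 in the knockout, a relative log2 ratio of -0.60. The region chr14:118227900-118231879 (3980 bp) had 418 and 465 against 383 and 453, a relative log2 ratio of 0.29. The genotypes of the first of this pair were well apart, whereas the pileups of the second overlapped between genotypes. Only relative to the other autosomes did the 2 neighbours go in opposite directions within the same stretch of the chromosome.

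For the series as a whole, the autosomal lists held 58292 and 62085 calls in wild type against 49319 and 56861 in the knockout, and the median fold at the summit was 5.84 and 6.15 against 4.57 and 4.72. The fold is thus lower in both knockout libraries. Read totals per library are unknown here, and the part of this lower enrichment in the counts below was not tested.

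The share of a library's calls that fell on chromosome 14 was nearly the same in the 4 libraries. In replicates 1 and 2 of the wild type it was 2.98% (95% Wilson interval 2.84 to 3.12) and 3.04% (2.91 to 3.18). In those of the knockout it was 3.10% (2.95 to 3.25) and 3.03% (2.90 to 3.18). These intervals cover counting error only, and all 4 overlapped. In numbers, chromosome 14 had 1735 and 1886 calls in wild type against 1527 and 1724 in the knockout. The ratio of knockout to wild-type calls was 0.880 in replicates 1 and 0.914 in replicates 2, against 0.845 and 0.916 on the other autosomes. The mean share in the knockout was 1.02 times that in wild type, the fourth highest ratio of 19 autosomes, behind chromosomes 6, 11 and 12. The calls covered 1.66 and 1.71 Mb of the chromosome in wild type against 1.58 and 1.62 Mb in the knockout.

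Of the 2095 regions, 1342 (64.1%) were called in all 4 libraries, against 60.7% on the other autosomes, and only 1 other autosome had a larger share. Regions called in the 2 wild-type libraries alone were counted as lost, and those called in the 2 knockout libraries alone as gained. On chromosome 14, 126 regions (6.01%, interval 5.07 to 7.12) were lost, and the background on the other autosomes was 7.08%. Another 36 regions (1.72%, interval 1.24 to 2.37) were gained, against a background of 1.51%. Both shares were near the background, which lay within each interval. The intervals of these shares, here and below, cover counting error over regions only. They do not measure the spread between libraries or between chromosomes. The ratio of lost to gained regions was 3.50, against 4.68 elsewhere. Among the other 18 autosomes the lost share ranged from 4.27% to 10.3%, with 16 above chromosome 14, and the gained share from 0.468% to 3.24%, with 4 above it.

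These counts depend on the lists. With the strongest 49319 calls of every library, 80 regions were lost (4.31%, against 4.63% elsewhere) and 79 gained (4.25%, against 3.43%). At a −log10 q of at least 5, 137 were lost (6.96%, against 8.19%) and 26 gained (1.32%, against 0.837%). Leaving out a library loosens the definition: 275 regions were lost without wild-type replicate 1 (13.4%, against 14.1% elsewhere) and 260 without knockout replicate 2 (12.9%, against 14.7%). Without wild-type replicate 2, 79 were gained (4.06%, against 2.74%), whereas without knockout replicate 1 there were 108 (5.24%, against 6.65%) and without knockout replicate 2 there were 70 (3.46%, against 4.10%). The gained share thus lay above or below the reference depending on the library left out, and the lost share lay below it without each library in turn.

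Regions that 1 library alone failed to call also differed from the reference in 1 pattern. On chromosome 14, 43 regions (2.05%, interval 1.53 to 2.75) were missing in wild-type replicate 1 only, against 1.05% elsewhere, and no other autosome exceeded 1.67%. The matching pattern for wild-type replicate 2 held 13 regions (0.621%, against 0.792%), so the excess was seen in 1 wild-type library and not in the other. Missing in knockout replicate 1 only were 134 regions (6.40%, against 6.87%), and missing in knockout replicate 2 only were 32 (1.53%, against 1.40%). Taken over both libraries of a genotype, 166 regions lacked 1 knockout call and 56 lacked 1 wild-type call, a ratio of 2.96 against 4.50 on the other autosomes.

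**Figure D2:**
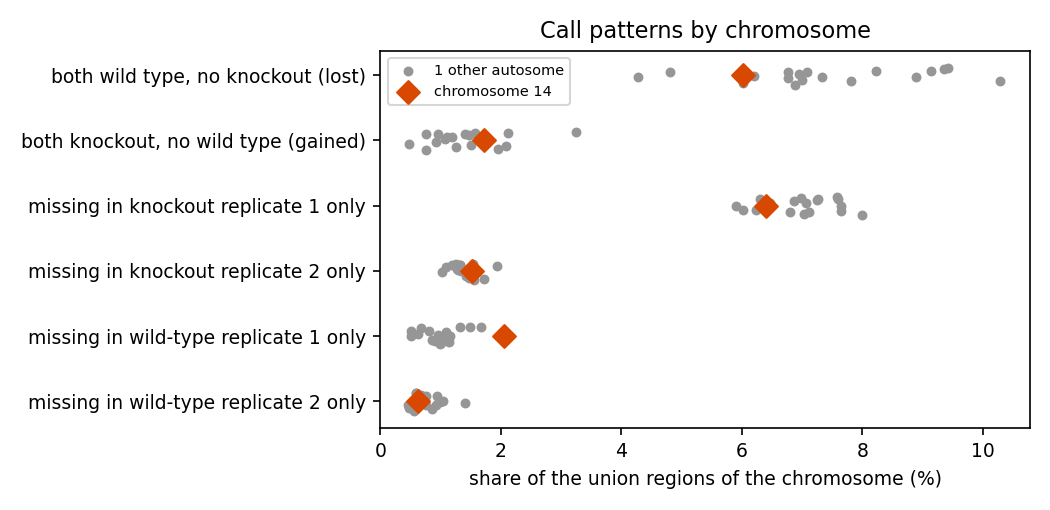
Share of each autosome's merged regions (horizontal axis, %) with the call pattern named on the vertical axis; grey dots are the 18 other autosomes, jittered vertically, and the diamond is chromosome 14. Chromosome 14 lies inside the range of the others in 5 patterns and beyond it, at 2.05%, for regions missing in wild-type replicate 1 only.

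Lost regions were short and weak. Their median length was 512 bp, against 545 bp for lost regions elsewhere, and 117 of the 126 (92.9%, against 92.2%) were below the median call of each wild-type list. The shortest autosomal call was 337 and 307 bp in the wild-type replicates and 380 and 338 bp in those of the knockout. The part of this difference in the lost regions was not tested. Their median pileup was 61.5 and 67 in the wild-type replicates. Only 3 were above the median of both lists, which is 0.342% of the chromosome's 878 regions that strong in wild type, against 0.788% elsewhere. The strongest of the 3, chr14:33696640-33697194, had pileups of 139 and 160 in wild-type replicates 1 and 2 and no call in either knockout library. It stood alone, 179 kb from the nearest region called in all 4 libraries. The second, chr14:65391944-65392750, had 234 and 282 and lay 3.80 kb from a shared region. The last of the 3, chr14:76218298-76218990, had 113 and 123.

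The next in rank lay below the median of at least 1 wild-type list. At chr14:75482993-75483883 the wild-type pileups were 110 and 124, at chr14:61841351-61842048 they were 138 and 142, and at chr14:25951816-25952534, in the fullest megabase, 106 and 119. In these 6 regions the wild-type replicates differed by less than 50 fragments, and a region without a call may still hold fragments below the caller's threshold.

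Gained regions were weaker still. All 36 lay below the median of both knockout lists, as did 99.4% of gained regions elsewhere, and their median pileup was 45 and 47.5. The strongest, chr14:67048371-67048853, had pileups of 73 and 91 in knockout replicates 1 and 2 and no call in either wild-type library. Next were chr14:77249413-77250358 with 64 and 73, chr14:20389709-20390525 with 61 and 63, and chr14:11419902-11421530 with 60 and 58. The region chr14:55018682-55019456 had 70 and 73. The last of the 6, chr14:18546367-18547486, had 55 and 68 and lay 1087 kb from the nearest region called in all 4 libraries. None of the 6 reached the 50th percentile of a list, the highest being 45.3 at the first.

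Lost and gained regions lay farther from shared regions than on the other autosomes by the median, while the share close by differed less for gained regions. Lost regions were a median of 20.3 kb from the nearest shared region, against 11.6 kb elsewhere, and gained regions 22.6 kb, against 10.8 kb. Neighbouring regions of any pattern are also farther apart on this chromosome, as given above, so the distances are not shown to be particular to lost and gained regions. Within 5 kb of a shared region lay 23 lost regions (18.3%, against 26.2% elsewhere) and 7 gained regions (19.4%, against 21.5%). More than 100 kb away lay 10 of the 36 gained regions (27.8%, against 11.9%) and 17 of the 126 lost regions (13.5%, against 10.4%). Along the chromosome, lost regions were found in 13 of 13 bins and gained regions in 11. The bin from 60 to 70 Mb held the most of both, 26 lost and 10 gained, and it is also the fullest bin. The bin from 10 to 20 Mb, with 3 lost and 6 gained, was the only bin where gains outnumbered losses.

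The 1342 regions called in all 4 libraries can be compared by their summit pileup. For each region, the log2 pileup of a library was taken relative to the mean of the 4 libraries, and the median of the same value over the 41947 shared regions of the other autosomes was subtracted, which sets the median of the other autosomes to 0 in each library. This does not remove differences in enrichment between strong and weak regions, which are given below by quartile. On chromosome 14 the median of this centred value was -0.06 in each wild-type replicate and 0.06 in each knockout replicate. The knockout libraries were thus the higher pair, and the replicates of a genotype almost coincided. In bulk libraries, more fragments per cell and a different mix of cells cannot be told apart.

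The median log2 ratio of pileup, knockout over wild type, exceeded that of the other autosomes by 0.12, that is 1.09 times. It was 0.12 within replicates 1 and 0.12 within replicates 2, whereas the replicates of the same genotype differed by 0.01 in wild type and 0.004 in the knockout. The 18 other autosomes ranged from -0.09 on chromosome 19 to 0.08 on chromosome 18, with an SD of 0.04, and none lay above chromosome 14. Chromosome 6 stood near chromosome 18 at 0.08, and the remaining 16 did not exceed 0.03. By rank among all shared regions, those of chromosome 14 moved up by 2.12 percentile points more than those of the other autosomes. Chromosome 18 was next at 1.55 points, whereas chromosome 6 was at 0.09 and the remaining 16 did not exceed 0.21. The rank is among the values for which the chromosome was proposed, and the pileup comes from the same calls.

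**Figure D3:**
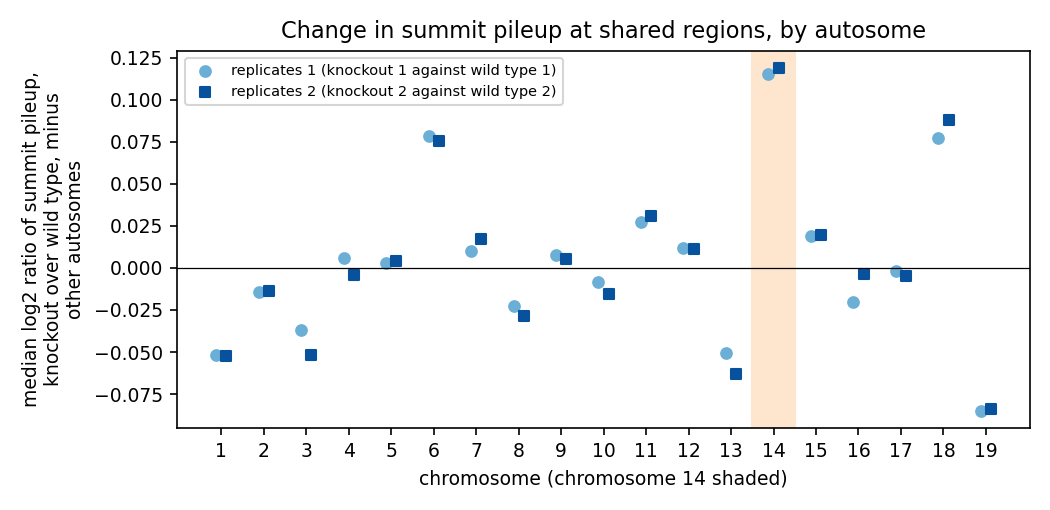
Median log2 ratio of summit pileup, knockout over wild type, at regions called in all 4 libraries, minus the median of the autosomes other than chromosome 14 (vertical axis), for each autosome (horizontal axis); circles compare replicates 1 and squares replicates 2. Both points of chromosome 14 lie at 0.12, and those of chromosomes 6 and 18 lie between 0.076 and 0.088.

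The difference was a shift of the bulk of the regions and not of a few. On chromosome 14, 910 of 1342 shared regions (67.8%) lay above the reference median. Their lower and upper quartiles were -0.07 and 0.27, against -0.19 and 0.16 on the other autosomes, and the 5th and 95th percentiles were -0.48 and 0.59, against -0.60 and 0.49. In 658 regions (49.0%) the lower knockout library exceeded the higher wild-type library in centred pileup, against a background of 30.9% on the other autosomes. In 249 regions (18.6%) the higher knockout library was below the lower wild-type library, against 30.7%. Among the other autosomes, the first share ranged from 19.05% to 43.5% and the second from 22.3% to 42.2%, so chromosome 14 lay beyond the range in both.

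**Figure D4:**
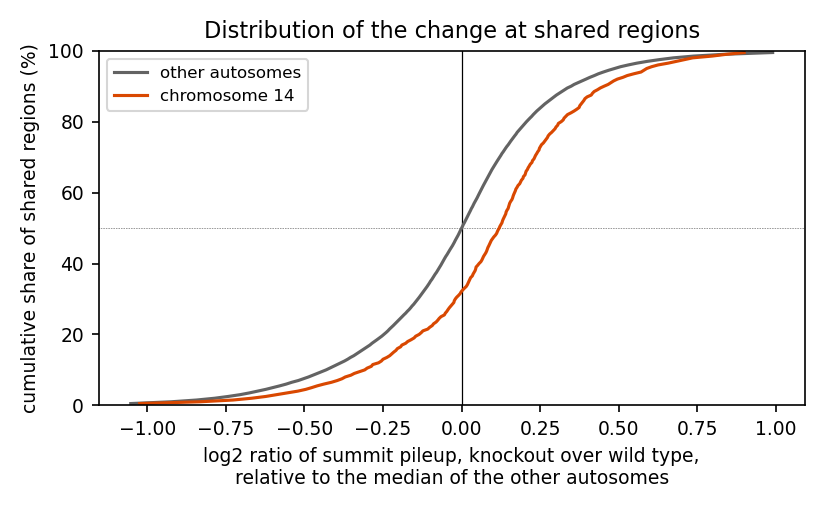
Cumulative share of shared regions (vertical axis, %) against the log2 ratio of summit pileup, knockout over wild type, relative to the median of the other autosomes (horizontal axis), for chromosome 14 (1342 regions) and the other autosomes (41947 regions). The curve of chromosome 14 is displaced to the right over most of its length, with medians of 0.12 and 0.

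The shift was found along the whole chromosome. In each of 13 bins of 10 Mb, the medians of both knockout libraries exceeded the medians of both wild-type libraries. Among the 11 bins with at least 20 shared regions, the relative log2 ratio ranged from 0.07 in the first bin to 0.16 in the next 2 bins, and the largest difference between replicates of a genotype was 0.06, in the first. The pairs differed most in the first 2 bins, with 0.13 and 0.18 in replicates 1 and 0.02 and 0.07 in replicates 2. The sparse bins from 80 to 90 Mb and from 90 to 100 Mb gave 0.09 and 0.10, with 14 regions in each. Of 238 bins on the other autosomes with at least 20 shared regions, 19 (7.98%) exceeded the lowest of the 11, and 14 of these 19 lay on chromosome 6 or 18. By rank, 11 of 11 bins lay above the reference, by 1.60 to 2.79 percentile points, while the bin from 90 to 100 Mb lay below it at -0.71.

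**Figure D5:**
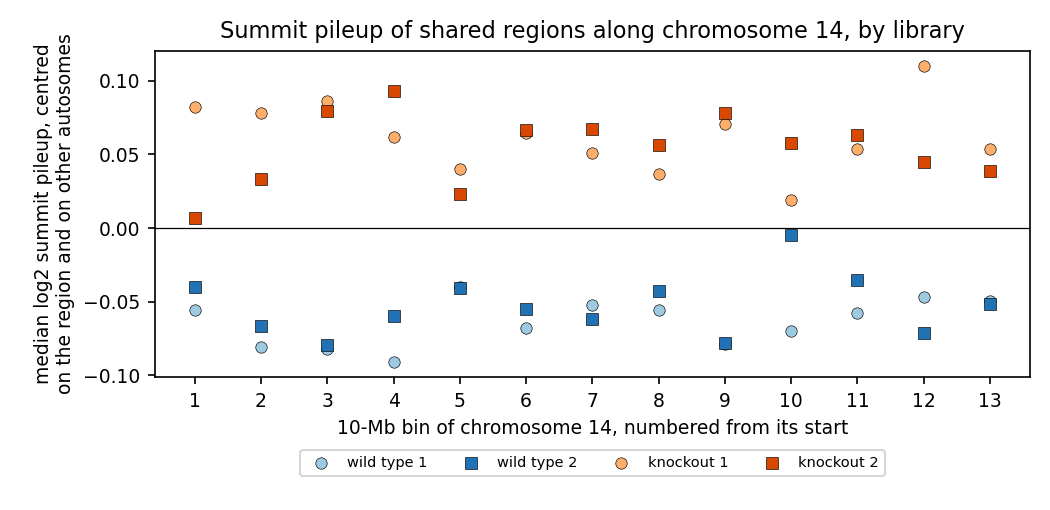
Median log2 summit pileup of the shared regions in each 10-Mb bin of chromosome 14 (horizontal axis, numbered from the start), centred on the mean of the 4 libraries at each region and on the other autosomes (vertical axis); 1 point per library. In 13 of 13 bins both knockout points lie above both wild-type points.

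The excess was present in strong and weak regions and in long and short ones. When the shared regions of all autosomes were divided into quartiles by their wild-type rank, the chromosome 14 regions exceeded the others of the same quartile by 0.09, 0.09, 0.14 and 0.13 in log2 ratio, from the weakest to the strongest quartile. The weakest quartile was higher in the knockout on chromosome 14 (0.29) and over the other autosomes pooled (0.20). The quartiles were formed from the wild-type calls, which also enter the ratio, and regions had to pass the threshold in every list to be counted. The part of either in these values was not tested. In quartiles of region length the excess was 0.12, 0.12, 0.10 and 0.12. By rank, the weakest quartile moved up by 3.91 percentile points on chromosome 14 and 1.54 elsewhere, and the strongest by 1.21 and 0.03.

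Relative to the other autosomes, the local background moved with the pileup. It is the fragment density around a call against which the caller tests the summit, and it is never set below a genome-wide level of its library. At the shared regions of chromosome 14 its median was 1.41 and 1.48 times the genome-wide level in the wild-type replicates, lower than on any of the 18 other autosomes, which began at 1.52 in both. In the knockout replicates it was 1.33 and 1.40 times, and 3 and 1 of the other autosomes lay lower. As multiples of that level the knockout values were thus the lower ones, as also over the 18 other autosomes. The median value of these went from 1.70 and 1.77 to 1.49 and 1.57. The genome-wide level itself was higher in the knockout, at 17.2 and 17.4 fragments against 14.7 and 15.1 in wild type. A lower multiple does not by itself show a lower background in fragments. Over the 823 shared regions whose background stood above the genome-wide level in all 4 libraries, the log2 ratio of knockout to wild-type background exceeded that of the other autosomes by 0.09. Only chromosome 6 was higher, at 0.14.

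The deposited fold divides the pileup by the local background, and less of the difference was seen in the fold. The fold was compared over all 1342 shared regions, also those with a background at the genome-wide level. Calls at that level made up 40.2% to 47.1% of a library's calls on chromosome 14, against 29.4% to 37.4% elsewhere. Their part in the smaller difference was not tested. The log2 ratio of folds exceeded that of the other autosomes by 0.04, close to chromosome 18, also 0.04, and with the other 17 between -0.04 and 0.03. Ranked by the fold in place of the p-value, the regions moved up by 0.94 percentile points relative to the other autosomes. Pileup and local background were thus both higher relative to the other autosomes in the knockout libraries. They are not separate observations, since the background was itself higher at stronger regions. In wild-type replicates 1 and 2 it was 274 and 300 at chr14:67952642-67954000, the strongest shared region, and 14.7 and 15.1 at the weak chr14:118382472-118383612. The part of the pileup in the background was not tested. Nor was the part of the number of chromosome copies, or of the number of reads that map to the chromosome, in these values.

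Single regions departed from the common shift in both directions. Among shared regions with at least 20 fragments in every library and no overlap of the genotypes, the highest relative ratio was at chr14:118382472-118383612, with pileups of 42 and 32 in wild type against 98 and 83 in the knockout (3.17 times relative to the other autosomes). At chr14:34106553-34107409 the pileups were 38 and 45 against 90 and 71 (2.49 times). These are weak calls in wild type, below the 10th percentile of both lists. Stronger in wild type was chr14:15832134-15832898, with 86 and 83 against 144 and 155 (2.28 times), a region 118 kb from its nearest shared neighbour. The region chr14:69928747-69930428 had 40 and 42 against 69 and 71 (2.20 times). The last of the 5, chr14:46411642-46413296, had 77 and 94 against 126 and 139 (2.01 times).

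The regions lowest in the knockout began from higher wild-type levels. At chr14:59862419-59863514 the pileups were 145 and 206 in wild type against 39 and 52 in the knockout, a relative log2 ratio of -1.57. At chr14:60990173-60991353 they were 183 and 204 against 53 and 77 (-1.23). The region chr14:77273545-77274857 had 196 and 358 against 72 and 114 (-1.18), with the widest spread between wild-type replicates of the 5. At chr14:7400561-7401205 the values were 204 and 223 against 76 and 78 (-1.10), and at chr14:60005621-60006835 they were 384 and 443 against 133 and 176 (-1.06). Of these 5, 3 lay between 59 and 61 Mb. All 10 regions were picked for the size of their difference, so these values describe them and test nothing.

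The edge of the left-out segment fell in a gap between regions. The region nearest to it below 41 Mb, chr14:40783089-40783563, was called in wild-type replicate 2 only, with a pileup of 85. The next below, chr14:40774656-40776019, had pileups of 146 and 196 in wild type against 154 and 148 in the knockout. The first region inside, chr14:41180410-41181247, had 36 in wild-type replicate 1, no call in replicate 2, and 61 and 57 in the knockout. The last region inside, chr14:44170399-44170866, had 98 and 144 in wild type, no call in knockout replicate 1 and 96 in replicate 2. Just above 45 Mb, chr14:45377760-45378952 had 92 and 112 against 78 and 123. With the segment kept, 126 regions were lost (5.95%, against 7.08% on the other autosomes) and 42 gained (1.98%, against 1.51%).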

How the data were processed

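ATAC-seq was deposited as 4 narrowPeak lists, 1 per library, so peaks were called in each library. MACS2 called the peaks and positions are in GRCm39, per the submitters' processing notes. Not given in the sources used here are the aligner, any version, a duplicate filter and a read shift. The authors deposited for each call a display score (10 times the −log10 q, not used), the fold enrichment of the summit (a ratio), and its −log10 p and −log10 q. Read totals are unknown here. Positions were made 1-based and merged into regions. The pileup and local background were recovered from the deposited fold, (pileup + 1)/(background + 1), and the Poisson p-value; over 99.9% of pileups came within 0.05 of a whole number. Each region took its strongest call by −log10 p. The members, lists and comparisons were chosen with earlier results of these data known. Named regions are the 8 strongest shared, the 3 longest, the 6 top-ranked lost and gained, and the 5 highest and 5 lowest relative ratios with non-overlapping genotypes and a pileup of at least 20. Genes were not placed, as the table is of build GRCm38.p6. Alternatives were a −log10 q of at least 5, equal lists, calls covering 50% of a region, 501 bp summit windows, the left-out segment kept, a reference without chromosomes 6 and 18, the fold as measure, quartiles of rank and leaving out each library. Python 3.11.15, numpy, pandas and scipy 1.17.1 were used, and the steps were tested on simulated data.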

Additional observations from a re-analysis of the deposited data

Results flagged for a closer look

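The 24 regions with midpoints between 41 and 45 Mb of chromosome 14 are not among the members, and they drew attention because their signal in the knockout exceeded that in the wild-type libraries. The 9 of them called in all 4 libraries had a median log2 ratio of summit pileup, knockout over wild type, of 0.41 relative to the other autosomes, and all 9 lay above the reference median. The difference was 0.36 in replicates 1 and 0.46 in replicates 2. In the segment 6 of 24 regions were gained and 0 lost, where 1.51% and 7.08% of the regions of the other autosomes were gained and lost. Their part in other results of the chromosome is limited by their number: with them kept, the pileup excess of the chromosome was 0.12.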

How the results depend on the processing

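The excess of chromosome 14 in summit pileup (0.12) and in rank (2.12 points) kept its direction in every alternative run. With the deposited fold in place of the pileup, which is a different measure, the log2 ratio was 0.0395. The log2 pileup ratio was 0.124 at a −log10 q of at least 5, 0.127 with a reference without chromosomes 6 and 18 and 0.11 within rank quartiles. The rank change was 0.94 points by fold and 2.32 within quartiles. Leaving out each library in turn gave 0.113 to 0.118 for the pileup, 1.94 to 2.29 points for the rank, 0.083 to 0.099 for the local background, and 1.008 to 1.03 for the ratio of call shares, which was 1.04 at the stricter q. Without chromosomes 6 and 18 in the reference, the background difference was 0.105; alternatives for the local background were added after the data were seen. Lists of equal length gave 80 lost (4.31%, against 4.63% elsewhere) and 79 gained regions (4.25%, against 3.43%). Leaving out a library gave 158 to 275 lost (7.67% to 13.4%, against 8.69% to 14.7% elsewhere) and 49 to 108 gained (2.39% to 5.24%, against 2.38% to 6.65%). Taking the difference within replicate numbers (a replicate block) gave 2.00 points for the rank, 0.12 for the pileup, 0.09 for the background and 1.02 for the share. The labels do not say whether libraries with the same number belong together. The replicate differences of the genotypes correlated with r = 0.17 across 43298 shared regions, which are not independent, so this value does not settle it. The cause of these movements was not tested. Regions near the caller's threshold limit the counts, since a call can be missing where fragments are present.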
